A study of Mus musculus with 3 samples.

Results

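The transcripts of 38 regulators of apoptosis were examined in single cells of injured mouse muscle. Members were taken by gene symbol from the 32285 features of the deposited tables and were all found. They comprise 6 anti-apoptotic genes of the BCL2 family, 3 inhibitors of apoptosis (IAP genes), 3 pore-forming effectors, 7 BH3-only genes, 6 genes of the apoptosome and of proteins released from mitochondria, 5 genes of death receptors, their ligands and adaptor, 4 initiator or executioner caspases, 3 inflammatory caspases and the nuclease inhibitor Dffa. By these roles 9 members were counted as anti-apoptotic and 25 as pro-apoptotic, and the remaining 4 (Casp1, Casp4, Casp12 and Dffa) as neither. The cells came from tibialis anterior muscle of C57/BL6J mice 4 days after damage by barium chloride. Young PBS denotes mice of 3 to 4 months whose damaged muscle was injected with saline, old PBS the same in mice of 24 to 26 months, and old rMETRNL mice of 24 to 26 months whose damaged muscle received recombinant METRNL (meteorin-like protein). For each group 1 library was pooled from 3 mice. There were no replicate libraries, so no test between groups was possible, and all intervals are 95% intervals for counting error, which leave out the spread between mice.

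Apoptosis is an ordered form of cell death carried out by caspases. In the mitochondrial route, BH3-only proteins free or activate BAX and BAK, which open the outer mitochondrial membrane and release cytochrome c, whereas BCL2-type proteins hold them in check. In the other route, ligands such as FASL and TRAIL engage death receptors at the cell surface and activate caspase 8 through the adaptor FADD. In muscle regeneration, apoptosis of fibro/adipogenic progenitors and clearance of inflammatory cells are known to accompany the resolution of damage.

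The 3 libraries held 12168 to 14012 cell barcodes and 179295668 to 228966697 UMIs (unique molecular identifiers, which count captured transcripts), the fewest UMIs in old PBS. After filtering, 10293, 9946 and 11353 cells were kept in young PBS, old PBS and old rMETRNL, and pairs of libraries shared 58 to 80 barcodes. Cells were grouped into classes named from marker genes with the ending "-like", since the names rest on transcripts alone. Fibro/adipogenic progenitor-like (FAP-like) cells numbered 1653, 1328 and 1675, and macrophage/monocyte-like cells 6061, 5775 and 6594. T/NK-like, dendritic-like, endothelial-like and tenocyte-like cells were also compared. The dendritic-like cells were led by Cd209a, Flt3 and Ccr7 but also by the killer-cell receptor genes Klrd1, Klrb1b and Klrk1. Of the myogenic cells only cluster 13 (464, 206 and 432 cells, led by Ttn, Myog and Myod1) was compared, by its number, because most myogenic cells of old PBS lay in other clusters. Levels are summed UMIs of a class in a library per 1000000 UMIs of that class (CPM). They are listed in the order young PBS, old PBS, old rMETRNL and are not comparable between genes.

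Most members had a class of highest level that was the same in all 3 libraries, which held for 32 of 38. Dendritic-like cells had the highest level of 8 members, myogenic cluster 13 of 8, endothelial-like cells of 6, macrophage/monocyte-like cells of 6, FAP-like cells of 2 and T/NK-like cells of 2. The exceptions were Birc2, Bcl2l11, Bid, Fas, Casp2 and Dffa, whose highest class differed between libraries. Every member passed 50 UMIs over all kept cells, the lowest total being 483 UMIs for Fasl.

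**Figure D1:**
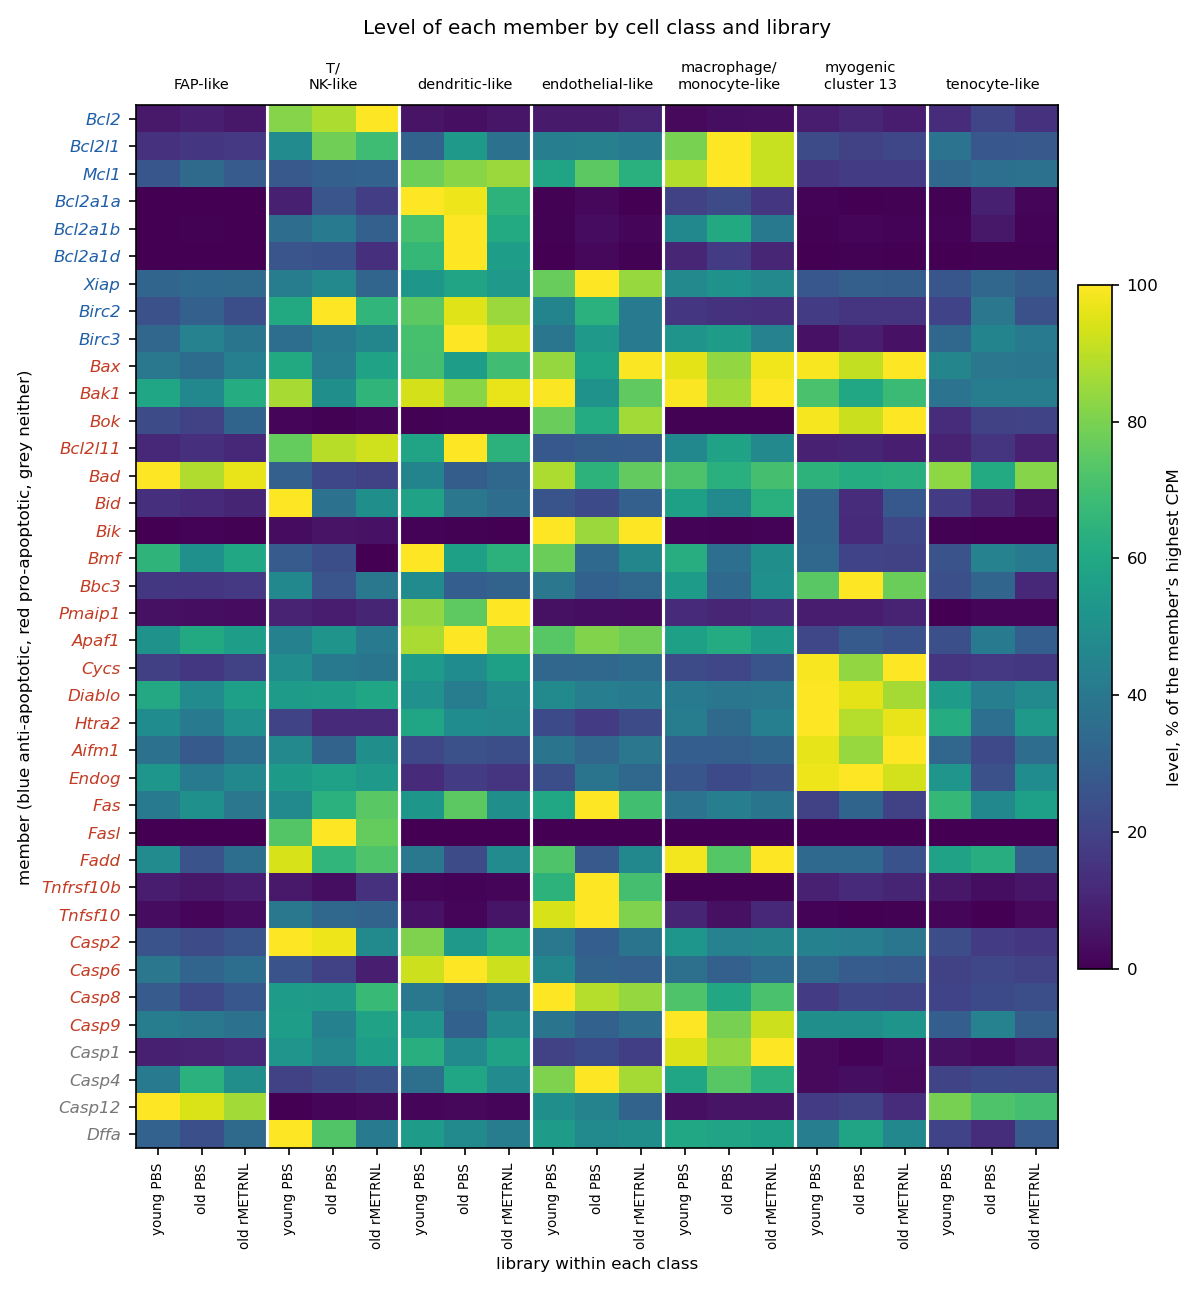
Level of each of the 38 members (rows) in each class and library (columns), as percent of the member's own highest CPM; colour runs from 0 (dark) to 100 (yellow), and gene names are blue for anti-apoptotic, red for pro-apoptotic and grey for neither. The mitochondrial members Cycs, Htra2, Aifm1 and Endog are brightest in myogenic cluster 13, Bcl2 and Fasl in T/NK-like cells, and the 3 Bcl2a1 copies in dendritic-like cells.

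Among the anti-apoptotic genes, Bcl2, the founding member of the family, was highest in T/NK-like cells at 129, 138 and 158 CPM, against 11, 13.5 and 10.3 CPM in FAP-like and 4.25, 5.88 and 6.34 CPM in macrophage/monocyte-like cells. Bcl2l1, which encodes BCL-XL, was highest in macrophage/monocyte-like cells at 49.2, 61.5 and 56.3 CPM, and its level in myogenic cluster 13 was 14.2, 12.1 and 13 CPM. These BCL2-type guards therefore had different leading classes. Mcl1, which encodes a short-lived guard of the outer membrane, reached 969, 1094 and 999.9 CPM in macrophage/monocyte-like cells and 162, 194 and 193 CPM in myogenic cluster 13. Xiap, an inhibitor of active caspases, was highest in endothelial-like cells at 116, 151 and 127 CPM.

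The 3 Bcl2a1 copies encode near-identical anti-apoptotic proteins of blood cells and lie close together on chromosome 9. In GENCODE M21 on build GRCm38, Bcl2a1a spans positions 88956900 to 88962419 of the plus strand, Bcl2a1b 89199209 to 89207827 of the plus strand and Bcl2a1d 88723285 to 88731914 of the minus strand. Their annotated transcripts were 98.2% (a and b), 98.8% (a and d) and 99.1% (b and d) identical over 817, 819 and 817 aligned bases, and between 41.0% and 67.7% of 50-base windows of one copy occurred unchanged in another. The split of UMIs among the copies is therefore uncertain. Their promoter windows (RefSeq, build GRCm38.p6, 250 bases before to 50 bases after the annotated start, 5′ to 3′ on the gene's strand) are shown because the copies had the same leading class. They lie at chr9:88956670-88956969 on the plus strand for Bcl2a1a, chr9:89199023-89199322 on the plus strand for Bcl2a1b and chr9:88731801-88732100 on the minus strand for Bcl2a1d. Capitals mark the longest run shared by all 3 windows, 84 bases.
Bcl2a1a: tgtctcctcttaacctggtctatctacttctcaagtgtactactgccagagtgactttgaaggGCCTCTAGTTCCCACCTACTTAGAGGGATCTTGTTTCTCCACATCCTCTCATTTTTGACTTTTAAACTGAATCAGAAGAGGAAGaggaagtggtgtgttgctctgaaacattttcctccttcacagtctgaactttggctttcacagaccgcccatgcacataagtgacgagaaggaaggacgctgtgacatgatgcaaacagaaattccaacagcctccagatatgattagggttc
Bcl2a1b: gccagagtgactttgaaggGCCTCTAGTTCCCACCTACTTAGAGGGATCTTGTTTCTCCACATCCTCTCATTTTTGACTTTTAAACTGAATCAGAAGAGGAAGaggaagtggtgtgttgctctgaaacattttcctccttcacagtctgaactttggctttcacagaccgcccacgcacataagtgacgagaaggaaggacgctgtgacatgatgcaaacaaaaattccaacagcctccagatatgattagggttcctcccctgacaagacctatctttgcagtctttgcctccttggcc
Bcl2a1d: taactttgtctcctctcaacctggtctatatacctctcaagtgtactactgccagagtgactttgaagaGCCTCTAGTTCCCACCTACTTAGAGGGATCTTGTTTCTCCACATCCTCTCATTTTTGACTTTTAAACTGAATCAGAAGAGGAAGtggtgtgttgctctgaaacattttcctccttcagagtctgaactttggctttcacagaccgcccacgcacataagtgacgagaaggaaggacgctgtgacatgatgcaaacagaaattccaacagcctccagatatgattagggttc
The shared run began 187, 231 and 181 bases before the annotated start in a, b and d. In dendritic-like cells the levels were 393, 553 and 338 CPM for Bcl2a1b, 175, 264 and 146 CPM for Bcl2a1d and 58.6, 57.2 and 37.8 CPM for Bcl2a1a. T/NK-like cells had 197, 231 and 169 CPM of Bcl2a1b. All other classes apart from macrophage/monocyte-like cells had far less.

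Of the pore-forming effectors, Bax and Bok were highest in myogenic cluster 13. Bok, a BAX-like gene, stood at 84.7, 79.1 and 85.8 CPM there and at 66.3, 52.8 and 74 CPM in endothelial-like cells. Bak1, the close relative of Bax, was highest in macrophage/monocyte-like cells at 53.8, 46.6 and 54.1 CPM. The BH3-only genes were spread over the classes. Pmaip1, which encodes NOXA, was highest in dendritic-like cells at 198, 178 and 237 CPM, whereas FAP-like cells had 10.7, 9.23 and 8.19 CPM. Bik was highest in endothelial-like cells at 49.7, 42.3 and 49.7 CPM. Bad, a BH3-only gene governed by growth factor signalling, was highest in FAP-like cells at 59.4, 52.3 and 57.4 CPM.

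Genes of mitochondrial intermembrane proteins shared a leading class. Cycs, which encodes cytochrome c, was highest in myogenic cluster 13 at 407, 344 and 411 CPM, against 77.8, 66.2 and 81.7 CPM in FAP-like and 93.3, 87.4 and 107 CPM in macrophage/monocyte-like cells. Htra2, a protease that removes IAP proteins, reached 67.5, 59.98 and 65.2 CPM in that cluster, and Aifm1, an oxidoreductase that can move to the nucleus, reached 65.8, 57.8 and 68.3 CPM. Diablo and the nuclease gene Endog were also highest there. Apaf1, the scaffold of the apoptosome, differed from them in being highest in dendritic-like cells at 47.6, 54.5 and 44.2 CPM.

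The death ligands and receptors differed in the cells that held them. Fasl, the ligand of FAS, was counted at 169, 206 and 86 UMIs in T/NK-like cells, that is 96.7, 132 and 101 CPM, and at 1, 0 and 0 UMIs in FAP-like cells. A count of 0 allows up to 0.101 CPM in FAP-like cells of old PBS and 0.0682 CPM in those of old rMETRNL. Fasl was thus nearly confined to T/NK-like cells in these libraries, with at most 3 UMIs in any other class and library. Tnfrsf10b, the mouse receptor of TRAIL, was highest in endothelial-like cells at 53.8, 82.9 and 58.5 CPM. Tnfsf10, which encodes TRAIL itself, was highest in the same class at 59.3, 63.1 and 51 CPM. Among the caspases, Casp8 stood at 104, 92.4 and 87.8 CPM and Casp4 at 151, 187 and 162 CPM in endothelial-like cells. Casp12 was highest in FAP-like cells at 46, 43.4 and 39.6 CPM and next in tenocyte-like cells at 36.5, 33.3 and 32.2 CPM. Casp1, the caspase that matures interleukin 1β, was highest in macrophage/monocyte-like cells at 64.3, 56.7 and 67.8 CPM.

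Within FAP-like cells, more pro-apoptotic members were lower in old PBS than in young PBS, and the anti-apoptotic members tended the other way. The age contrast sets old PBS over young PBS (old-to-young ratio), and the treatment contrast sets old rMETRNL over old PBS (rMETRNL-to-PBS ratio). Both use the same old PBS library and are therefore not independent, so that a high or low value in old PBS moves them in opposite directions. A member was counted as past the fold when it was at least 25% higher or 20% lower, the counting interval of its ratio left out 1 and the class held at least 50 of its UMIs over the 3 libraries. In FAP-like cells 34 of 38 members had that many UMIs. The others were Bcl2a1a, Bcl2a1d, Bik and Fasl, with at most 16 UMIs in any library. In the age contrast 4 members were past the fold as higher, where 13.2% of the 14235 genes with as many UMIs were, and 8 as lower, where 16% of all genes were. None of the 23 pro-apoptotic members with enough UMIs was past the fold as higher and 8 as lower, with a median log2 ratio of -0.23 against -0.04 over all genes, and of -0.10 once ratios were centred on gene length. Of 10 cell cycle genes in the same cells 9 were lower for age (median -0.55) and 10 higher for treatment (median 0.89). Without regard to size 20 of the 23 pro-apoptotic members had a log2 ratio below 0, beside 7790 of all 14235 genes. Of the 7 anti-apoptotic members 3 were higher and 0 lower, with a median of 0.29. All 7 had a log2 ratio above 0. In the treatment contrast 6 members were higher (10.7% of all genes) and 6 lower (9.34% of all genes). These 12 became 7 with doublet calls kept and 5 with cycling cells left out. The medians were then 0.23 for pro-apoptotic members, 5 of them higher and 2 lower, and -0.28 for anti-apoptotic members, 0 higher and 3 lower, beside 0.02 over all genes. These counts and medians include Bcl2a1b, whose level in FAP-like cells was below the estimated background and is not read as expression (given with its values). In 12 alternatives that recomputed each ratio, Birc3, Casp4, Fadd, Tnfsf10 and Bcl2a1b always stayed past 25% higher or 20% lower for age, and Tnfsf10, Dffa and Bcl2a1b for treatment. The other members past the fold fell short in at least 1 alternative. For age Bak1, Endog and Tnfrsf10b stayed past it in 5 of 12, Casp8 in 8, Bmf in 9, Aifm1 in 10 and Mcl1 in 11. For treatment Bcl2l11 and Fas stayed past it in 7, Casp4 and Aifm1 in 8, Fadd in 9, Bcl2 and Birc2 in 10, and Bok and Bak1 in 11.

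**Figure D2:**
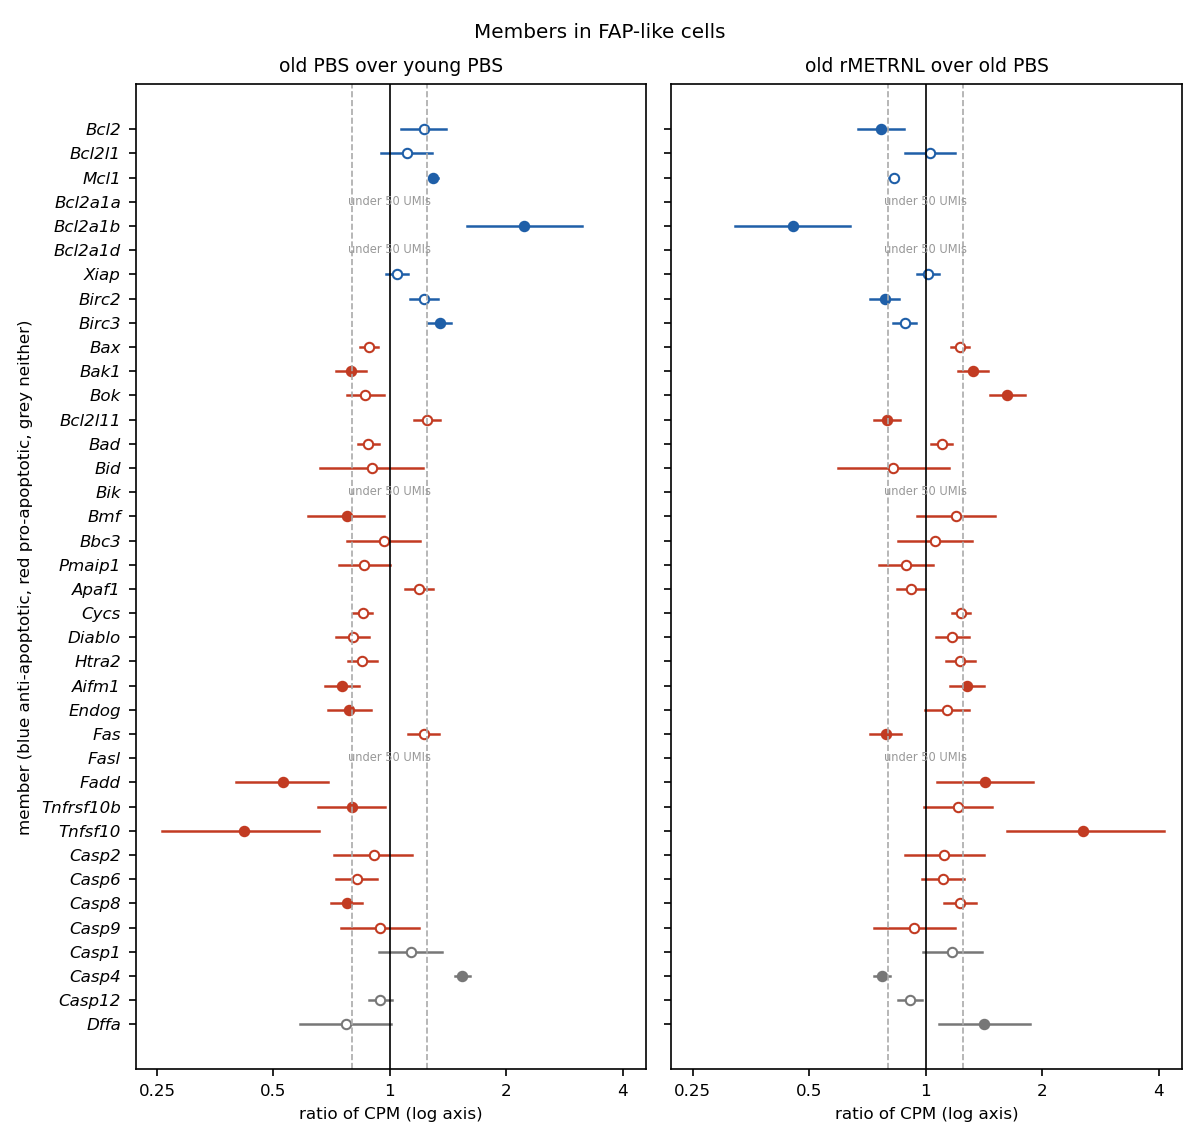
Ratio of CPM of each member in FAP-like cells on a log axis, old PBS over young PBS on the left and old rMETRNL over old PBS on the right. Points are ratios of 2 libraries and bars 95% counting intervals, filled points are past the fold (dashed lines) with an interval that leaves out 1, and 4 members had under 50 UMIs. Tnfsf10 lies farthest below 1 on the left at 0.419 and farthest above 1 on the right at 2.55.

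Among the guards of the mitochondrial membrane, the level of Mcl1 in FAP-like cells was 292 (young PBS), 378 (old PBS) and 313 CPM (old rMETRNL). The old-to-young ratio was 1.3 (1.26–1.33) and the rMETRNL-to-PBS ratio 0.826 (0.806–0.847). Old PBS was thus the highest of the libraries for Mcl1. The gene has a span of 4389 bases at positions 95658788 to 95663176 of chromosome 3. Bcl2 was at 11, 13.5 and 10.3 CPM, with an old-to-young ratio of 1.22 (1.07–1.4), not past the fold, and a rMETRNL-to-PBS ratio of 0.765 (0.668–0.878). For Bcl2l1 the levels were 8.89, 9.84 and 10.1 CPM and both intervals held 1.

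Bcl2a1b was counted at 61, 88 and 59 UMIs in FAP-like cells, or 1.33, 2.95 and 1.34 CPM, with ratios of 2.22 (1.59–3.13) and 0.454 (0.321–0.639). All 16 macrophage/monocyte markers were detected in the FAP-like cells of every library, with summed levels of 723, 724 and 700.4 CPM. These were 1.26%, 1.34% and 1.32% of the sums in macrophage/monocyte-like cells. Macrophage RNA in those shares would alone give Bcl2a1b levels of 3.26, 4.5 and 2.94 CPM. The measured levels were below these estimates, which therefore overstate free RNA and cannot tell background from expression. The ratios of Bcl2a1b in FAP-like cells are read neither as expression nor as a difference. Without Cycs and the 3 Bcl2a1 copies the anti-apoptotic medians in FAP-like cells were 0.29 for age and -0.23 for treatment.

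The IAP genes restrain caspases or act as ubiquitin ligases in TNF receptor complexes. Birc3, which encodes cIAP2, was at 38.8, 52.3 and 46.1 CPM, with an old-to-young ratio of 1.35 (1.26–1.44) and a rMETRNL-to-PBS ratio of 0.882 (0.825–0.942). Its neighbour on chromosome 9, Birc2, which encodes cIAP1, was at 26.8, 32.8 and 25.7 CPM with ratios of 1.22 (1.12–1.33) and 0.784 (0.719–0.855), the latter 0.812 without cycling cells. Old PBS was the highest library for both. Xiap hardly differed, at 49.1, 51.2 and 51.9 CPM.

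Over all FAP-like cells the 3 pore-forming effectors had their lowest level in old PBS. Bak1 was at 31.9, 25.3 and 33.4 CPM, with an old-to-young ratio of 0.794 (0.726–0.867) and a rMETRNL-to-PBS ratio of 1.32 (1.21–1.45). Bok was at 19.6, 17 and 27.6 CPM, with an old-to-young ratio of 0.864 (0.773–0.964) that was not past the fold and a rMETRNL-to-PBS ratio of 1.63 (1.46–1.81). In the cells outside the cycle Bok was at 11.3, 12.2 and 14.4 CPM, so that its age direction turned and young PBS was lowest. For Bax the levels were 82.6, 72.9 and 89.4 CPM, and neither ratio was past the fold. Cells in cycle, defined as those with at least 2 UMIs over 10 cell cycle genes, made up 28.5%, 19.7% and 30.6% of FAP-like cells. Bok was higher in cycling than in other FAP-like cells by 3.02, 2.44 and 3.27-fold, Cycs by 1.82, 1.47 and 1.95-fold, Aifm1 by 1.58, 1.55 and 1.61-fold and Bak1 by 1.5, 1.67 and 1.4-fold. With cycling cells left out several ratios were short of the fold. For age these were Mcl1 at 1.22, Casp8 at 0.867 and Endog at 0.844. For treatment they were Bok at 1.18, Aifm1 at 1.17, Fadd at 1.2, Bcl2l11 at 0.897, Fas at 0.820, Birc2 at 0.812 and Casp4 at 0.857. Dffa, at 1.34 for treatment, then had an interval that held 1 (0.955–1.88). Bmf was at 6.06, 4.29 and 6.24 CPM in the cells outside the cycle and was past the fold for treatment there. Birc2 at 25.4, 32.2 and 26.2 CPM and Casp6 at 15.7, 12.1 and 13.97 CPM were past it for age there. The 5 members past the fold for treatment among these cells were Bcl2, Bcl2a1b, Bak1, Bmf and Tnfsf10. Casp4 and Mcl1 were lower in cycling cells, at 0.664, 0.756 and 0.606 and 0.794, 0.934 and 0.838 times the level of the others.

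BH3-only genes, which sense stress signals upstream of BAX and BAK, had differing directions in FAP-like cells, with median log2 ratios of -0.17 for age and -0.05 for treatment. Bcl2l11, which encodes BIM, differed from most other pro-apoptotic genes, as its level of 32.8, 41 and 32.4 CPM was highest in old PBS. The old-to-young ratio was 1.2497 (1.16–1.35), just under the fold, and the rMETRNL-to-PBS ratio 0.792 (0.733–0.856), or 0.897 without cycling cells. Bmf, which is held by the cytoskeleton in healthy cells, was at 5.16, 3.99 and 4.78 CPM, with an old-to-young ratio of 0.774 (0.615–0.968) and a rMETRNL-to-PBS ratio of 1.2 (0.95–1.51) over all FAP-like cells. Bad, Bid, Bbc3 and Pmaip1 were not past the fold in either contrast. Levels of Pmaip1 ranged from 8.19 to 10.7 CPM.

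Genes of the apoptosome and of mitochondrial proteins were mostly lowest in old PBS. Aifm1 was at 25.7, 19.4 and 24.8 CPM, with ratios of 0.754 (0.681–0.834) for age and 1.28 (1.15–1.41) for treatment. Endog was at 15.9, 12.5 and 14.2 CPM with ratios of 0.786 (0.692–0.892) and 1.13 (0.995–1.29). Cycs, Diablo and Htra2 had old-to-young ratios of 0.851, 0.802 and 0.849 and rMETRNL-to-PBS ratios of 1.23, 1.17 and 1.23, none past the fold. In the cells outside the cycle Cycs hardly differed, at 59.9, 58.7 and 59.1 CPM. Apaf1 was the exception, with levels of 27.8, 33.2 and 30.3 CPM and the highest in old PBS.

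Tnfsf10 had the lowest old-to-young and the highest rMETRNL-to-PBS ratio of the members measured in FAP-like cells. The gene (TRAIL; chromosome 3, positions 27317028 to 27342427) was counted at 92, 25 and 94 UMIs, or 2.0, 0.839 and 2.14 CPM. The old-to-young ratio was 0.419 (0.258–0.657) and the rMETRNL-to-PBS ratio 2.55 (1.62–4.13), with intervals that are wide because old PBS had few UMIs. RNA of endothelial-like cells, the class with most Tnfsf10, would give 0.136, 0.238 and 0.147 CPM from the summed level of 10 endothelial markers in FAP-like cells (40.6, 63.5 and 43.1 CPM, none at 0), and the measured levels were above that. Fadd, the adaptor of death receptors, was at 4.71, 2.48 and 3.53 CPM, with ratios of 0.528 (0.40–0.69) and 1.42 (1.07–1.9), the latter 1.2 without cycling cells. Tnfrsf10b was at 6.51, 5.2 and 6.3 CPM with ratios of 0.799 (0.654–0.973) and 1.21 (0.991–1.48). Fas, by contrast, was highest in old PBS at 22.7, 27.8 and 21.9 CPM, with ratios of 1.22 (1.11–1.34) and 0.787 (0.717–0.865), the latter 0.820 without cycling cells.

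Of the caspases, Casp8, the initiator downstream of FADD, was at 29.7, 23 and 28.3 CPM, with an old-to-young ratio of 0.774 (0.705–0.849), or 0.867 without cycling cells, and a rMETRNL-to-PBS ratio of 1.23 (1.12–1.35). In the cells outside the cycle Casp8 was at 25.31, 21.96 and 21.74 CPM, so that its treatment direction turned. Casp2, Casp6 and Casp9 were not past the fold in either contrast over all FAP-like cells. Casp4, the mouse sensor of intracellular lipopolysaccharide often called caspase 11, was at 77.7 (young PBS), 119.6 (old PBS) and 92.2 CPM (old rMETRNL). It lies on chromosome 9 at positions 5308828 to 5336783. The old-to-young ratio was 1.54 (1.47–1.61) and the rMETRNL-to-PBS ratio 0.771 (0.737–0.807), or 0.857 without cycling cells. Casp1, the other inflammatory caspase with a role in pyroptosis, was at 5.99, 6.78 and 7.94 CPM and Casp12 at 46, 43.4 and 39.6 CPM, and neither was past the fold. Dffa, which encodes the inhibitor of the caspase-activated nuclease, was at 3.62, 2.79 and 3.93 CPM, with an old-to-young ratio of 0.77 (0.585–1.01) and a rMETRNL-to-PBS ratio of 1.41 (1.08–1.86).

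FAP-like cells comprised cluster 9 (1288, 868 and 1112 cells, led by Sfrp1 and Postn), cluster 10 (244, 408 and 422 cells, led by Pi16) and the cycling cluster 17 (121, 52 and 141 cells). Clusters were made from all genes, the members included, so that levels within them are a description. Casp4 was 80.7, 123 and 105 CPM in cluster 9, 84.1, 120.0 and 73.6 CPM in cluster 10 and 50.7, 79.1 and 55.7 CPM in cluster 17, with old PBS the highest in each. Old PBS was also highest for Mcl1 in each of them, at 292, 382 and 323 CPM, 366, 405 and 332 CPM and 221, 268 and 241 CPM. Bak1 was lowest in old PBS in all of these clusters, at 31.4, 24 and 31.6 CPM, 27.4, 25.7 and 32.8 CPM and 39.3, 37.6 and 42.4 CPM. With the clusters weighted alike in every library, the old-to-young ratios were 1.51 for Casp4, 1.26 for Mcl1, 0.566 for Fadd and 0.429 for Tnfsf10. Those of Bak1 at 0.816, Casp8 at 0.812, Aifm1 at 0.803 and Tnfrsf10b at 0.848 were short of the fold under this weighting. For treatment Bok was at 1.36, while Aifm1 at 1.2, Casp4 at 0.803 and Bcl2l11 at 0.827 were short of it.

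In macrophage/monocyte-like cells, 37 of 38 members had enough UMIs, all but Fasl. In the age contrast 4 members were higher (12.3% of the 14324 genes tested) and 5 lower (12.4% of all genes). The former were Bcl2, Bcl2l1, Bcl2a1b and Bcl2a1d, the latter Bmf, Bbc3, Fadd, Tnfsf10 and Casp9. In the treatment contrast 7 members were higher (12.7% of all genes) and 3 lower (7.65% of all genes). With clusters weighted alike the age count was 5, namely Bcl2, Bcl2a1d, Bbc3, Fadd and Casp12, the last not among the 9. The treatment count fell from 10 to 6. The median log2 old-to-young ratio was -0.25 over 24 pro-apoptotic members (0 higher, 5 lower) and 0.26 over 9 anti-apoptotic members (4 higher, 0 lower), beside 0.00 over all genes. The corresponding treatment medians were 0.21 (7 higher, 0 lower) and -0.13 (0 higher, 3 lower), beside 0.05. The 3 lower members were the Bcl2a1 copies, among which the split of UMIs is uncertain, so that they are not separate results. The 7 include Bok and the medians Bok, Bik and Tnfrsf10b, whose levels in this class were below the estimated background and are not read as expression (given with the values of Bok). Without Cycs and the 3 Bcl2a1 copies the anti-apoptotic age median was 0.14. Over 12 alternatives Bcl2, Bcl2a1d and Bbc3 always stayed past 25% higher or 20% lower for age, and Bcl2a1b, Bcl2a1d, Bbc3, Tnfsf10 and Bok for treatment. For age Bcl2a1b, Bmf and Tnfsf10 stayed past it in 11, Fadd in 10, and Bcl2l1 and Casp9 in 6. For treatment Bcl2a1a and Bmf stayed past it in 11, Bid and Fadd in 10 and Htra2 in 4.

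**Figure D3:**
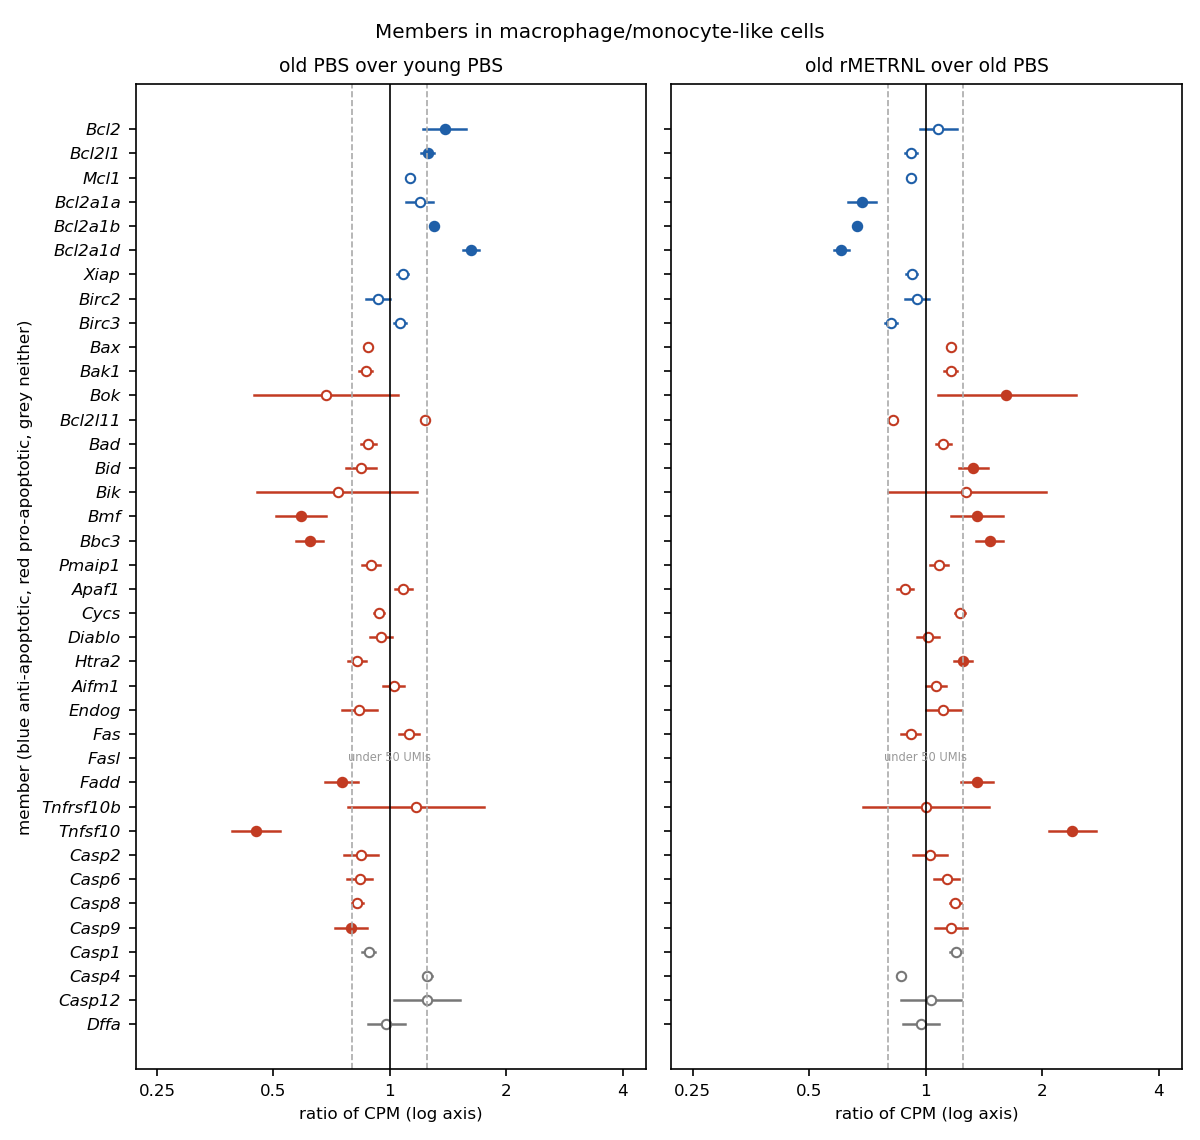
Ratio of CPM of each member in macrophage/monocyte-like cells on a log axis, with panels, points, bars and colours as for the FAP-like cells. Tnfsf10 is again lowest on the left at 0.45 (0.812 with clusters weighted alike), and the 3 Bcl2a1 copies are the lowest points on the right, between 0.605 and 0.685.

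All 6 anti-apoptotic BCL2 genes had old-to-young ratios above 1 in these cells. Bcl2a1d was at 28.8 (young PBS), 46.8 (old PBS) and 28.3 CPM (old rMETRNL), with ratios of 1.62 (1.55–1.7) for age and 0.605 (0.578–0.633) for treatment. Bcl2a1b was at 258, 336 and 223 CPM, with ratios of 1.3 (1.28–1.32) and 0.665 (0.654–0.676). For Bcl2a1a the levels were 11.4, 13.6 and 9.32 CPM and the ratios 1.19 (1.1–1.29), not past the fold, and 0.685 (0.631–0.744). All 3 copies were highest in old PBS. Bcl2 was at 4.25, 5.88 and 6.34 CPM, with an old-to-young ratio of 1.39 (1.22–1.58) and a rMETRNL-to-PBS ratio of 1.08 (0.964–1.21). Bcl2l1 was at 49.2, 61.5 and 56.3 CPM with ratios of 1.252 (1.21–1.3) and 0.915 (0.883–0.949). Mcl1, at 969, 1094 and 999.9 CPM, had an old-to-young ratio of 1.13 and was not past the fold. The 3 IAP genes were not past the fold either, with old-to-young ratios of 1.08 for Xiap, 0.932 for Birc2 and 1.06 for Birc3.

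Several BH3-only genes were lowest in old PBS. Bbc3, which encodes PUMA and is a classical target of p53, was at 16.2, 10.1 and 14.7 CPM, with ratios of 0.62 (0.572–0.672) for age and 1.47 (1.35–1.59) for treatment. Bmf was at 4.96, 2.92 and 3.96 CPM, with ratios of 0.589 (0.507–0.684) and 1.36 (1.16–1.58). Bid, which links death receptors to mitochondria, was at 10.7, 9.02 and 12 CPM, with an old-to-young ratio of 0.843 (0.769–0.923) and a rMETRNL-to-PBS ratio of 1.33 (1.22–1.45). Bcl2l11 was the opposite case, highest in old PBS at 137, 169 and 139 CPM, with ratios of 1.23 and 0.822 that were not past the fold. Bad, Bik and Pmaip1 had no ratio past the fold.

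Tnfsf10 again had the lowest old-to-young and the highest rMETRNL-to-PBS ratio of the members measured over the class as a whole, with levels of 6.44 (young PBS), 2.9 (old PBS) and 6.94 CPM (old rMETRNL). Its ratios were 0.45 (0.39–0.519) for age and 2.39 (2.08–2.75) for treatment. With clusters weighted alike they were 0.812, which is short of the fold and nearer to 1 than Bbc3 at 0.751 and Fadd at 0.789, and 1.43. Endothelial RNA would give 0.65, 1.18 and 0.88 CPM, less than was measured in each library. Fadd was at 9.57, 7.18 and 9.74 CPM, with ratios of 0.75 (0.679–0.829) and 1.36 (1.23–1.49). Casp9, the initiator caspase of the apoptosome, was at 10.2, 8.11 and 9.42 CPM, with ratios of 0.795 (0.723–0.874) and 1.16 (1.06–1.27). Htra2 was at 28.4, 23.4 and 29.2 CPM and had a rMETRNL-to-PBS ratio of 1.2501 (1.18–1.32), past the fold. Bok was past the fold in the treatment contrast on 57, 39 and 72 UMIs, but its levels of 0.587, 0.403 and 0.649 CPM were below the 0.727, 0.984 and 1.28 CPM that endothelial RNA would give and are not read as expression. The same held for Bik and Tnfrsf10b in this class. Estimates above the measured level overstate free RNA, so they cannot tell background from expression for these genes. The source of their UMIs was not tested. The remaining members (Bax, Bak1, Apaf1, Cycs, Diablo, Aifm1, Endog, Fas, Casp1, Casp2, Casp6, Casp8, Casp12 and Dffa) had ratios between 0.824 and 1.247 that were not past the fold. That of Casp12 for age was 1.73 with clusters weighted alike. Casp4 was at 111, 138 and 119 CPM, with an old-to-young ratio of 1.249 (1.22–1.28) that fell just short of it.

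For Bcl2a1b and Tnfsf10 the macrophage/monocyte-like clusters differed more from each other than the libraries did. Bcl2a1b reached 881, 859.7 and 802 CPM in cluster 3, which was led by Slc7a11, Ccrl2 and Nlrp3 and by the Bcl2a1 genes themselves, and only 20.9, 33 and 21.1 CPM in cluster 6, led by Lyve1 and Ccl8. Tnfsf10 was highest in cluster 5, which was led by interferon response genes such as Ifit2 and Rsad2, at 33.1, 35.3 and 40.8 CPM, and next in cluster 6 at 15.2, 10.6 and 17.2 CPM. Cluster 5 held 588, 142 and 507 cells. These sizes set how much a cluster weighs in the class level and are not read as a result. Cluster 2, led by Cx3cr1, held 1583, 696 and 1146 cells, and there Bmf was 9.54, 9.31 and 9.55 CPM and Bbc3 23.8, 20.8 and 24.8 CPM.

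**Figure D4:**
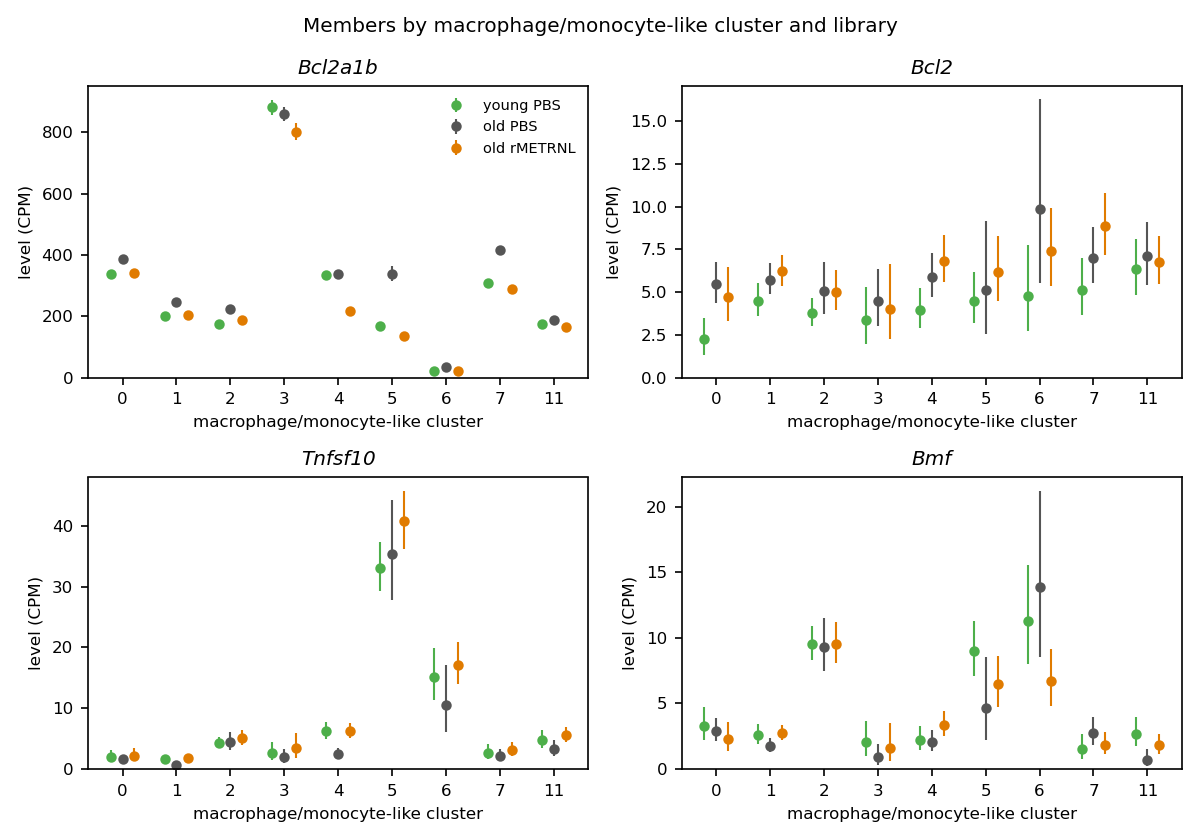
Level in CPM (vertical axes, from 0) of Bcl2a1b, Bcl2, Tnfsf10 and Bmf in the 9 macrophage/monocyte-like clusters (horizontal axes) in young PBS, old PBS and old rMETRNL, with 95% counting intervals. Cluster 3 is highest for Bcl2a1b and cluster 5 for Tnfsf10 in every library, and Bcl2 is higher in old PBS than in young PBS in each cluster.

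With clusters weighted alike, the old-to-young ratio of Tnfsf10 in macrophage/monocyte-like cells was 0.812 and its rMETRNL-to-PBS ratio 1.43. Those of Bmf were 0.852 and 1.09 and those of Bbc3 0.751 and 1.28. The ratios of these 3 genes were thus closer to 1 than over the class as a whole, and those of Bmf and the old-to-young ratio of Tnfsf10 were short of the fold. Bcl2a1d had 1.42 and 0.734, Bcl2a1b 1.17 and 0.784, and Fadd 0.789 and 1.3. The old-to-young ratio of Bcl2 stayed at 1.39. Under this weighting the old-to-young ratios of Bcl2a1b, Bcl2l1 (1.14) and Casp9 (0.833) and the rMETRNL-to-PBS ratios of Bid (1.19), Bcl2a1a (0.824) and Htra2 (1.17) were also short of the fold. Casp12, not past it over the class as a whole, had an old-to-young ratio of 1.73. In cluster 4, led by F13a1 and Cd163, Tnfsf10 was 6.21, 2.55 and 6.25 CPM and Bcl2a1b 334, 339 and 216 CPM.

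Gene length moved with the age contrast. Over all genes in FAP-like cells the median log2 old-to-young ratio went from -0.13 in the shortest eighth (median length 2.69 kb) to 0.11 in the longest (165 kb), and in macrophage/monocyte-like cells from -0.13 to 0.12. For treatment it went from 0.06 to -0.07 and from 0.12 to -0.03. The 3 shortest eighths held 3, 3 and 6 of the 23 pro-apoptotic members measured in FAP-like cells. With each log2 ratio centred on the median of its eighth, the pro-apoptotic age median was -0.10 in FAP-like and -0.15 in macrophage/monocyte-like cells, and the anti-apoptotic one 0.38 and 0.27. The centred treatment medians were 0.16 and 0.12 for pro-apoptotic and -0.32 and -0.23 for anti-apoptotic members. Ribosomal protein genes took 21.1%, 18.5% and 20.2% of UMIs in FAP-like and 14.4%, 13.7% and 14.2% in macrophage/monocyte-like cells. The part of RNA quality in the differences was not tested.

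**Figure D5:**
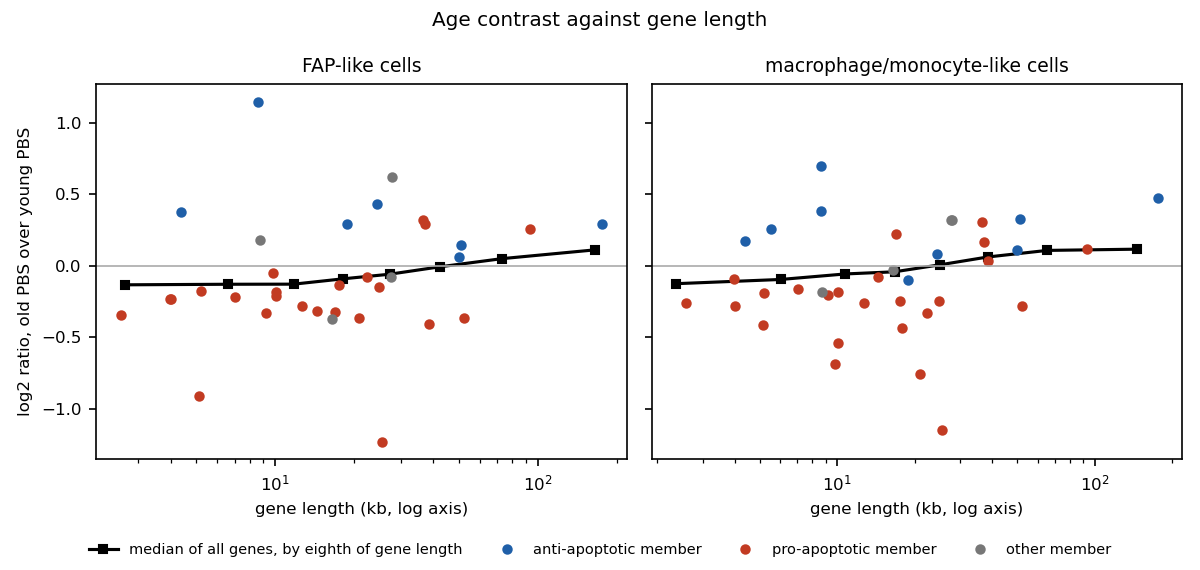
Log2 old-to-young ratio (old PBS over young PBS) against gene length in kb on a log axis, in FAP-like and macrophage/monocyte-like cells; the line joins the medians of all genes in 8 bins of length and points are single members. The line climbs from -0.13 to 0.11 in FAP-like cells, and most pro-apoptotic members lie below it and anti-apoptotic members above it in both classes.

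In the smaller classes members with at least 50 UMIs and a ratio past 1.5-fold were listed by size alone. Of 33 members measured in dendritic-like cells 10 were past it in the age contrast (15.4% of all genes) and 8 in the treatment contrast (12.3%). Bcl2l11 was at 172, 294 and 189 CPM there, with ratios of 1.71 (1.58–1.85) and 0.643 (0.596–0.694). Bcl2l1 was at 19.7, 33 and 23.1 CPM with an old-to-young ratio of 1.68 (1.32–2.13), and Casp4 at 69.4, 111 and 90.02 CPM with one of 1.59 (1.4–1.81). These were highest in old PBS. Bcl2a1d had ratios of 1.5 (1.39–1.63) and 0.555 (0.51–0.604), and the rMETRNL-to-PBS ratios of Bcl2a1b and Bcl2a1a were 0.612 (0.578–0.647) and 0.661 (0.555–0.788). Macrophage RNA would give 20.5, 29.6 and 16.4 CPM of Bcl2a1b in these cells, far below the level measured. Lower old-to-young ratios were found for Bad at 0.658 (0.499–0.86), Bbc3 at 0.619 (0.417–0.904), Bmf at 0.568 (0.323–0.96) and Tnfsf10 at 0.294 (0.0738–0.867). Tnfsf10 was counted at 22, 4 and 25 UMIs and had a rMETRNL-to-PBS ratio of 3.82 (1.32–15.1). Fadd and Casp9 were also past the size in both contrasts, and Bcl2 in the treatment contrast, but the counting intervals of Fadd and Casp9 for age and of Casp9 and Bcl2 for treatment held 1.

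Of 36 members measured in endothelial-like cells 8 were past 1.5-fold for age (19.3% of all genes) and 5 for treatment (13.6%). The median UMI count of these cells was 11376, 3943 and 7231, and all 10 cell cycle genes were lower for age (median log2 ratio -0.98) and higher for treatment (0.67). Of 13 dissociation stress genes 9 were higher for age (median 0.47) and 8 lower for treatment (median -0.35). The part of depth, cell cycle and dissociation stress in these differences was not tested. Bak1 was at 53.7, 27.7 and 40.8 CPM, with an old-to-young ratio of 0.516 (0.434–0.611). Fas, a death receptor also induced by p53, was at 33.1, 55.2 and 38.4 CPM with an old-to-young ratio of 1.67 (1.44–1.94), and Tnfrsf10b had one of 1.54 (1.37–1.74). Bmf, Fadd and Endog had old-to-young ratios of 0.438, 0.384 and 1.6. The rMETRNL-to-PBS ratios were 1.71 (1.58–1.86) for Bax, 0.648 (0.57–0.738) for Birc2 and 1.68 (0.964–3.05) for Fadd, whose interval held 1. Bcl2a1b and Bcl2a1d were past the size in both contrasts. The measured 3.92, 18.4 and 6.5 CPM of Bcl2a1b were near the 6.63, 17.3 and 10.2 CPM that macrophage RNA would give, and the summed macrophage marker level was 1471, 2780.4 and 2428 CPM, so that neither copy was read as expression.

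In myogenic cluster 13, 7 of 34 members were past 1.5-fold for age (10.4% of all genes) and 7 for treatment (9.17%). Bik was at 16.1, 6.2 and 10.6 CPM, with ratios of 0.385 (0.267–0.541) and 1.7 (1.19–2.49). Bid was at 6.04, 2.39 and 5.22 CPM, with ratios of 0.395 (0.213–0.684) and 2.19 (1.246–4.1). Both of these BH3-only genes were lowest in old PBS. Fas was at 10.7, 17.8 and 11 CPM with ratios of 1.66 (1.3–2.13) and 0.617 (0.481–0.792), and Birc3 at 5.98, 9.7 and 5.91 CPM with ratios of 1.62 (1.16–2.26) and 0.609 (0.433–0.859). Casp12 was at 7.93, 9.07 and 5.84 CPM, with a rMETRNL-to-PBS ratio of 0.644 (0.455–0.917). Bmf rested on 42, 10 and 23 UMIs, and its old-to-young ratio of 0.602 (0.269–1.22) had an interval that held 1. Casp1 and Bcl2a1b, at 1.7, 0.636 and 2.06 CPM and 3.46, 7.32 and 4.53 CPM, were near the 1.51, 1.67 and 2.41 CPM and 6.07, 9.91 and 7.95 CPM that macrophage RNA would give and are not read as expression. The mitochondrial members that were highest in this cluster differed little between the libraries, with old-to-young ratios of 0.845 (0.805–0.887) for Cycs and 0.878 (0.777–0.99) for Aifm1.

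Tenocyte-like cells had 8 of 24 members past 1.5-fold for age (15.6% of all genes) and 6 for treatment (12.4%). Birc2 was at 21.5, 42.4 and 26.7 CPM, with ratios of 1.98 (1.44–2.71) and 0.631 (0.467–0.855). Bcl2l11 was at 28.4, 45.4 and 27.6 CPM, with ratios of 1.6 (1.2–2.13) and 0.607 (0.452–0.815), and Bcl2 at 19.9, 32.8 and 22.6 CPM with an old-to-young ratio of 1.65 (1.17–2.32). Old PBS was highest for all of these. Macrophage/monocyte markers summed to 2581, 4436 and 3397 CPM in tenocyte-like cells, and macrophage RNA would give 6.17, 13.9 and 8.88 CPM of Bcl2l11 and 0.757, 1.29 and 0.952 CPM of Birc2. Its part in the ratios of Bcl2l11 was not tested. Endog was at 15.8, 7.57 and 14.7 CPM, with ratios of 0.478 (0.252–0.85) and 1.95 (1.08–3.71). Apaf1 and Htra2 had old-to-young ratios of 1.67 (1.09–2.55) and 0.59 (0.42–0.816), and that of Bok, 1.55 (0.953–2.51), had an interval that held 1. Aifm1 and Bbc3 had rMETRNL-to-PBS ratios of 1.6 (1.05–2.51) and 0.342 (0.151–0.741). Bcl2a1b, at 5.11, 34.8 and 6.27 CPM, was near the 11.6, 27.6 and 14.3 CPM from macrophage RNA and is not read as expression. In the same cells 5 of 9 cell cycle genes were lower for age (median log2 ratio -0.53) and 4 of 13 dissociation stress genes (median -0.14).

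T/NK-like cells joined cluster 15, led by Trbc2 and Cd3g (107, 148 and 84 cells), and cluster 18, led by Gzma (105, 37 and 39 cells). The part of this changing mix in the ratios of the class was not tested. In T/NK-like cells 4 of 26 members were past 1.5-fold for age (15.7% of all genes) and 4 for treatment (15.6%). There Birc2 was at 65.2, 107 and 70.6 CPM, with ratios of 1.64 (1.29–2.11) and 0.658 (0.481–0.889), and Bcl2l1 at 29.7, 48.2 and 42.3 CPM with an old-to-young ratio of 1.62 (1.12–2.35). Bak1 and Bid had old-to-young ratios of 0.575 (0.387–0.844) and 0.374 (0.171–0.759). Bcl2a1d had a rMETRNL-to-PBS ratio of 0.551 (0.356–0.83), and those of Aifm1 and Casp2 were 1.56 and 0.493 with intervals that held 1. Of 9 cell cycle genes measured in these cells 6 were higher for age (median 0.51) and 5 lower for treatment (median -0.60). Of 13 dissociation stress genes 2 were higher and 4 lower for age (median -0.12), and 7 higher and 2 lower for treatment (median 0.39). In dendritic-like cells 3 of 10 cell cycle genes and 5 of 13 stress genes were lower for age, and 5 stress genes were higher for treatment. In that class 1160 of all 9912 genes were lower for age and 900 higher for treatment. In myogenic cluster 13 the cell cycle medians were -0.19 and 0.33 and the stress medians 0.02 and -0.04. The part of cell cycle and dissociation stress in the members' differences was not tested in these classes.

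Other genes of the same pathways were counted by the same rule of 25% higher or 20% lower and stand beside the same shares of all genes. Of 12 genes of TNF receptor signalling in FAP-like cells, 3 were higher for age (Tnf, Tnfrsf1b and Ripk1) and 3 lower (Tradd, Ripk3 and Mlkl), with a median log2 ratio of 0.02. Tnf was at 1.63, 2.62 and 2.3 CPM in FAP-like cells and at 154, 158 and 146 CPM in macrophage/monocyte-like cells, whose markers were present in FAP-like cells at 1.26% to 1.34% of their level, so that Tnf in FAP-like cells was near background and is not read as a difference. For treatment 3 were higher and 2 lower, median 0.08. Ripk1, the kinase at the branch between survival and death signalling, was at 79.7, 118 and 91.4 CPM. Mlkl, the effector of necroptosis, was at 26.7, 21 and 28.7 CPM in FAP-like and 14.1, 8.48 and 13.7 CPM in macrophage/monocyte-like cells. In the latter class 0 genes of this list were higher and 2 lower for age, and 2 higher and 2 lower for treatment, the medians being 0 to 2 decimals and -0.06.

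Of 12 other apoptosis genes, 10 were measured in FAP-like cells. There 0 were higher and 3 lower for age (Birc5, Parp1 and Bnip3; median -0.11) and 3 higher and 0 lower for treatment (median 0.11). Bnip3, a BH3-like gene induced by low oxygen, was at 42.1, 20.5 and 46.8 CPM, and Birc5, an IAP gene with a role in mitosis, at 57.6, 35.5 and 65.3 CPM. In macrophage/monocyte-like cells 1 of 11 was higher and 3 lower for age (median -0.08), and 3 were higher and 0 lower for treatment (median 0.10). Of 11 genes of the p53 pathway in FAP-like cells, 4 were higher and 3 lower for age (median 0.14) and 0 higher and 2 lower for treatment (median -0.07), among them Cdkn1a at 102, 154 and 121 CPM and Eda2r at 6.73, 12.2 and 7.6 CPM. In macrophage/monocyte-like cells the p53 counts were 1 higher and 2 lower for age (median -0.11) and 2 higher and 0 lower for treatment (median 0 to 2 decimals).

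In FAP-like cells most cell cycle genes were lower in old PBS than in either other library, and few stress genes of tissue dissociation were past the fold. In macrophage/monocyte-like cells 2 of the 10 cell cycle genes were lower for age (median -0.22) and 9 higher for treatment (median 0.50). Of 13 dissociation stress genes in FAP-like cells, 0 were higher and 1 lower for age (median 0.03) and 2 higher and 1 lower for treatment (median -0.03). In macrophage/monocyte-like cells 1 was higher and 4 lower for age (median -0.02) and 4 higher and 1 lower for treatment (median -0.08). Hspa1a, an inducible heat shock gene, was at 1026, 609.9 and 1230.5 CPM and 1389, 656 and 1379.9 CPM in these classes. The part of dissociation stress in the members' differences was not tested.

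RefSeq promoter windows matched 34 of 38 members (46 windows). A sequence like the site bound by NF-κB, GGGANNNNCC on either strand, occurred in 11 of the 46 windows, those of Aifm1, Bak1, Bbc3, Bcl2a1b, Bcl2l11, Birc3, Bmf, Bok, Casp4 and Xiap, and in 20.7% of all 32851 windows. A sequence like the interferon-stimulated response element, GAAANNGAAA on either strand, was in 0 of the 46 windows, Tnfsf10 included, and in 3.44% of all windows. A match is a run of letters and not a site of binding, and its absence says only that these letters are not in the window.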

How the data were processed

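Single-cell RNA-seq of 3 libraries was used. The deposited values are unnormalised UMI counts for each gene in each barcode, which the authors made with Cell Ranger by alignment to mouse build mm10, UMI counting and cell calling. Version 5.0.0 is given in the file headers, while the submitters' processing notes also name 3.1.0.

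Barcodes needed 500 or more genes and less than 10% of UMIs from mitochondrial genes. Scrublet scores were computed in each library through scanpy 1.11.5. Because the default cut-off marked 0 cells, the top scores were taken out at 0.8% per 1000 barcodes (1110, 1112 and 1433 cells). After scaling to 10000 UMIs and log transformation, 2000 variable genes, 30 principal components and 20 neighbours gave 23 Leiden clusters (resolution 0.8). Libraries were not integrated, since each is its own group. A class name was given from 14 marker lists when at least 3 markers were detected in 10% of the cells and the mean log2 fold of the 8 best was at least 0.5. A second round of clustering within the FAP-like and the macrophage/monocyte-like class removed sub-clusters with at least 2 markers of another class among 10 leading genes, and 1 macrophage/monocyte-like sub-cluster (566 cells) whose median of 2020.0 UMIs per cell was under 1/3 of the library medians with no marker of its class among those genes. The naming limits were revised after the clusters had been seen. The members, gene lists and marker lists were chosen with earlier results of these data known.

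UMIs were summed per class and library. Levels had exact Poisson intervals, and ratios of 2 libraries exact conditional binomial intervals, both at 95% and for counting error only. Log2 ratios in medians had 0.5 added to each count, and a compared class needed 100 cells in every library. A count of 0 was given an upper limit of 3 counts. Each member past the fold was named. Free RNA was estimated as a gene's level in the source class times the percentage of that class's summed marker level found in the receiving class. Alternatives changed the cell filters, doublet removal, clustering, class membership, scaling, minimum UMIs, fold and lists. Centring on gene length and weighting clusters alike were added after seeing the data. Clusters weighted alike means that each cluster had the same weight in every library, while the weights differed between clusters. The scripts were tested on simulated counts. Gene positions are from GENCODE M21 (GRCm38), which matched 32158 of 32285 gene IDs. Tools were Python 3.11.15 with scipy 1.17.1, numpy 2.4.6, leidenalg 0.10.2, pandas 2.3.3, igraph 0.11.9, matplotlib 3.10.9 and anndata 0.12.19.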

Additional observations from a re-analysis of the deposited data

How the results depend on the processing

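Over all alternatives run, 193 values of the main results moved by less than their counting or list interval, or for counts by less than 1.5 times, 9 moved by more and 0 turned in direction. For members past the fold in FAP-like or macrophage/monocyte-like cells, ratios were recomputed only in the contrast where the member was past it. Of these, 475 moved by less than their interval, 41 by more, and 0 turned in direction. Other ratios, among them the other contrast of such members, were compared only with clusters weighted alike and outside the cell cycle. With clusters weighted alike the direction in macrophage/monocyte-like cells turned for age in Casp2 (0.842 to 1.02), Pmaip1 (0.892 to 1.10) and Aifm1, and for treatment in Casp2 (1.03 to 0.891), Casp12, Diablo, Pmaip1 and Tnfrsf10b. In FAP-like cells it turned for age in Bcl2a1a, which had under 50 UMIs. Outside the cycle it turned in FAP-like cells for age in Bok, Bbc3 and Casp9 and for treatment in Bbc3 and Casp8, and in macrophage/monocyte-like cells for treatment in Casp2, Dffa and Diablo. The pro-apoptotic age median in FAP-like cells went from -0.23 to -0.10 when log2 ratios were centred on gene length. With a fold of 1.5 the members past it numbered 4 for age (12 before) and 3 for treatment (12 before) in FAP-like cells, and 4 (9 before) and 4 (10 before) in macrophage/monocyte-like cells. The FAP treatment count became 7 with doublet calls kept and 5 with cycling cells left out. With clusters weighted alike the counts in macrophage/monocyte-like cells were 5 for age (9 before) and 6 for treatment (10 before). The causes of these changes were not tested. No paired analysis was possible because each group had 1 library, and for the same reason no replicate could be left out. The limits are the absence of replicate libraries, the shared old PBS library in both contrasts, its lower UMI total and the few UMIs of members such as Tnfsf10 in FAP-like cells.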
